A study of Mus musculus with 8 samples.

Results

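The ileal bile acid genes are Fgf15 together with the genes through which the epithelium of the lower small intestine senses, takes up, binds and exports bile acids. Members were chosen by name: a probe belonged to the set when the array's gene name was Fgf15, Fabp6, Slc10a2, Osta, Ostb, Nr1h4, Nr0b2, Abcc2 or Abcc3, where Osta and Ostb are older names of Slc51a and Slc51b. This gave 9 genes and 10 probes, out of 55681 probes on the array and 23282 genes tested. The genes were picked with the difference between the groups already known, so their differences are given as a description, with standard errors and without p-values. All 9 genes passed the filter on dim probes, Fgf15 only through the arrays of the knockout group. Of the 10 probes, 9 were well above background on all 8 arrays, and the exception was Fgf15.

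RNA was taken from the small intestine of mouse embryos at embryonic day 18.5 and hybridised to 1-colour Agilent arrays, 4 labelled control and 4 labelled Rfx6 knockout. The control embryos were wild type at Rfx6. The knockout embryos were Rfx6-/-: a floxed Rfx6 allele had been deleted with CMV-Cre, a Cre driver that is active throughout the body, and the resulting Rfx6+/- mice were intercrossed. The loss of Rfx6, a transcription factor of endocrine cells of the gut and pancreas, was therefore not restricted to the intestine, and both groups share the same tissue and stage with no treatment. The labels do not say whether each sample was a single embryo, nor which stretch of the small intestine was taken, so the spread between arrays may be partly technical.

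Bile acids are made from cholesterol in the liver, secreted into the gut and recovered mainly in the ileum. There the apical carrier Slc10a2 takes them into enterocytes, Fabp6 binds them in the cytosol, and the Slc51a and Slc51b subunits together export them across the basolateral membrane. Inside the cell they activate the nuclear receptor FXR, the product of Nr1h4, which drives transcription of Fabp6, Slc51a, Slc51b, Nr0b2 and Fgf15. The secreted Fgf15 protein, an endocrine fibroblast growth factor, travels to the liver and lowers bile acid synthesis through Fgfr4 and its co-receptor Klb.

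Because FXR binds an inverted repeat in front of several of these genes, and because hepatocyte nuclear factor 1 sites are known in front of bile acid carrier genes, the 250 bases upstream of the transcription start were searched in the RefSeq promoter table (GRCm38). The table held 7 of the 9 members, all but Fgf15 and Abcc3. Windows with a match are shown 5′ to 3′ on the strand of the gene, so that the last base lies next to the start, and the capitals mark the matches. The motifs were the FXR inverted repeat (AGGTCA and TGACCT with 1 base of any kind between them) and the HNF1 motif (GTTAAT and ATTAAC, likewise 1 base apart), each allowed at most 2 mismatches on either strand, and the LRH-1 motif TCAAGGTCA, allowed at most 1 mismatch on either strand. The last of these shares the letters AGGTCA with the FXR repeat.
Fabp6, chr11:43601563-43601812, minus strand: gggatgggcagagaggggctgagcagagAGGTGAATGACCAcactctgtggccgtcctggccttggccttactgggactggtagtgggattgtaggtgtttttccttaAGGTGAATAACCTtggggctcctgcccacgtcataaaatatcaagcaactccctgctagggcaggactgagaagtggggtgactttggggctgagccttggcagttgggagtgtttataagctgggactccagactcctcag
Slc10a2, chr8:5105288-5105537, minus strand: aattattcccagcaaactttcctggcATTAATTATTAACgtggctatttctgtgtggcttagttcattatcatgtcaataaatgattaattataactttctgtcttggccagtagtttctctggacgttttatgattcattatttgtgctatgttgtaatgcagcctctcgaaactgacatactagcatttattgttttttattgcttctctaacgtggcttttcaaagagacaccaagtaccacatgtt
Nr1h4, chr10:89506659-89506908, minus strand: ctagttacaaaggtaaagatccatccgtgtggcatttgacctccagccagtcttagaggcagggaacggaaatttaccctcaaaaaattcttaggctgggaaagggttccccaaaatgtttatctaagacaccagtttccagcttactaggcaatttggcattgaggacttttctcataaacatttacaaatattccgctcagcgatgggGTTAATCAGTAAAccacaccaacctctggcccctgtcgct
Abcc2, chr19:43782058-43782307, plus strand: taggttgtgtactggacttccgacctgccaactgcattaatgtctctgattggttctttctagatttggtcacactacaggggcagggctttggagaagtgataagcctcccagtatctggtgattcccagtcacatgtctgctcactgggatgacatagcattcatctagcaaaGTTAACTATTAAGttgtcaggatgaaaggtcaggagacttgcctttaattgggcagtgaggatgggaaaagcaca

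The Fabp6 window held 2 matches to the FXR repeat, AGGTGAATGACCA at 222 to 210 bases before the start and AGGTGAATAACCT at 142 to 130 bases before it, each with 2 mismatches. Among 32851 windows of the same length in the table, 0.959% held such a match and 0.0122% (4 windows) held 2. Fabp6 was the only member of the 7 with a match to this repeat in its window. The HNF1 motif matched in 3 of the 7 windows, against 1.24% of all windows: with 1 mismatch in Slc10a2 at 224 to 212 bases before the start, and with 2 mismatches in Nr1h4 at 40 to 28 bases and in Abcc2 at 75 to 63 bases. With at most 1 mismatch, 0.189% of all windows matched. The LRH-1 motif matched in none of the 7 windows, 0 of 7, and in 6.35% of all windows. These matches are stretches of letters and say nothing of binding in these embryos.

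The array measured Fabp6 with a 60-base probe that is shown here because its signal spans the widest range of levels among the control arrays of any member. It lies at chr11:43410973-43411032 on mm9, minus strand, and reads as 20 codons with 0 stop codons in its first frame.
Fabp6 probe: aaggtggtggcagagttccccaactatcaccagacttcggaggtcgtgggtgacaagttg

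Across the set, 3 members passed the threshold of the test over all genes as higher on the knockout arrays (Fgf15, Fabp6 and Abcc3) and 0 as lower. Fgf15 entered the test only through the knockout arrays, and with the filter on all 8 arrays 2 members were called. Of all genes tested, 2.33% were called higher and 2.59% lower (limma, adjusted p under 0.05). The knockout mean was the higher one for 7 members and the lower one for Nr1h4 and Nr0b2. The scaled levels of the groups did not overlap for 7 members that were higher on the knockout arrays, where 5.4% of all genes showed this, nor for 1 member that was lower, where 9.24% did. For Nr0b2 the groups overlapped. The median difference was 0.46 over the 9 members and -0.05 over all genes tested, on the log2 scale. Since the members were picked with this contrast known, nothing is read from these counts.

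**Figure D1:**
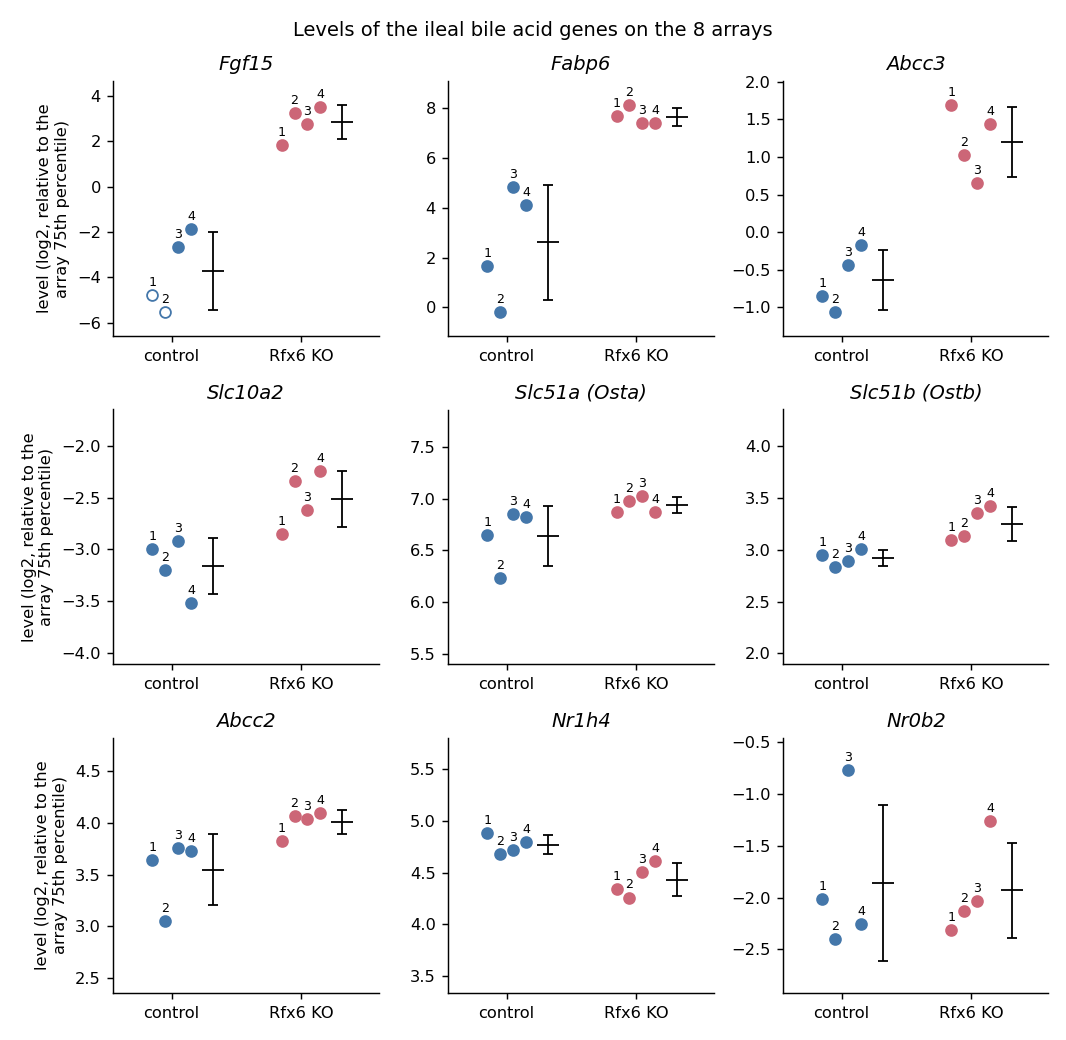
Level of each ileal bile acid gene on each array (log2 of the processed signal relative to the array's 75th percentile; every panel has its own axis). Numbers mark the replicates, open circles are arrays on which the probe was not well above background, and bars give the mean ± SD of the 4 arrays; Fgf15 and Fabp6 are spread widely among controls, whereas the other genes shift by less than 2 log2 units.

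The secreted signal of the pathway, Fgf15, was the member with the largest difference. Its probe lies at chr7:152086371-152086430 on mm9, plus strand. The processed signal was 24.5, 15.2, 102 and 192 on control arrays 1 to 4 and 2628, 6606, 4911 and 7341 on knockout arrays 1 to 4. On control arrays 1 and 2 the probe was not well above background, on control arrays 3 and 4 it was, and every knockout array exceeded every control array. The lowest knockout level was 12.9-fold above the highest control level.

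On the scale used for the comparison, the log2 level relative to the array's 75th percentile, Fgf15 stood at -3.70 ± 1.72 (SD, n = 4) on control arrays and at 2.85 ± 0.75 (SD, n = 4) on knockout arrays. The difference was 6.55 log2 units with a standard error of 0.77, a 93.7-fold ratio of the geometric means. The control arrays differed among themselves by 12.6-fold and the knockout arrays by 3.25-fold. With values that were not well above background raised to the floor of their array, the difference was 6.22. It was 5.19 with normexp background correction, 5.28 in the authors' quantile-normalized spot medians and 5.51 with array weights, each a fold ratio over 1.5 times smaller. With quantile normalization of the processed signal it was 6.59. In tissue RNA, a larger number of cells with a transcript and more transcript per cell cannot be told apart.

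The cytosolic bile acid binding protein Fabp6 also had a large difference, from a higher starting signal. Its signal was 2107, 618, 18488 and 11990 on control arrays 1 to 4 and 152396, 192913, 120129 and 107352 on knockout arrays 1 to 4. Control arrays 3 and 4 were well above control arrays 1 and 2, as they were for Fgf15, while the knockout arrays lay close together. The groups did not overlap, and the lowest knockout level was 5.86-fold above the highest control level.

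The mean Fabp6 level was 2.61 ± 2.30 for the controls and 7.65 ± 0.35 for the knockouts (SD, n = 4 each), a gap of 5.04 ± 0.96 (SE) in log2 units and a 32.9-fold ratio. The control range was 32.5-fold, nearly as wide as that ratio, and the knockout range was 1.66-fold. Without control array 2 the difference was 4.11, and with array weights it was 3.71. The call of Fabp6 was lost with no filter, with a block for the slide row or for the replicate number, and without control array 1, knockout array 1 or knockout array 2.

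The arrays occupied both rows of a single slide: row 1 held control 1 with knockouts 2, 3 and 4, and row 2 held controls 2, 3 and 4 with knockout 1. Row and group were thus partly confounded. The Fgf15 difference was 7.95 within row 1, 5.18 within row 2 and 6.56 with the row as a block. For Fabp6 these were 5.97, 4.76 and 5.37, and for Abcc3 1.89, 2.25 and 2.07. The control arrays with low Fgf15 and Fabp6, 1 and 2, lay in different rows.

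Abcc3 encodes an export pump of the basolateral membrane that carries bile acid and glucuronide conjugates towards the blood. Its probe, at chr11:94204612-94204671 on the minus strand, gave signals of 366, 334, 477 and 620 on the control arrays and 2393, 1393, 1126 and 1730 on the knockout arrays. Both groups were compact and did not overlap, with the lowest knockout level 1.77-fold above the highest control level. Its mean level was -0.63 ± 0.40 in controls against 1.20 ± 0.46 in knockouts (SD, n = 4 each), a difference of 1.83 log2 units with a standard error of 0.26 and a 3.56-fold ratio. Abcc3 was highest on knockout array 1, the array on which Fgf15 was lowest among the knockouts.

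Abcc2, the pump of the apical membrane that exports organic anion conjugates into the lumen, differed by less. Its signals, from chr19:43912079-43912138 on the plus strand, were 8249, 5772, 8746 and 9261 on control arrays and 10534, 11597, 11755 and 10882 on knockout arrays. The knockout arrays all lay above the control arrays, with control 2 the lowest of the 8. The difference was 0.46 log2 units with a standard error of 0.16, or 1.38-fold, from 3.55 ± 0.34 to 4.01 ± 0.12 (SD, n = 4 each), and it did not pass the threshold.

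The apical uptake carrier Slc10a2 was measured at a low signal of 82.5, 76.1, 85 and 60.6 on control arrays and 103, 136, 116 and 135 on knockout arrays, at chr8:5086145-5086204 on the minus strand. Every array measured it above background. Its knockout arrays were all above its control arrays, by 0.08 log2 units at the closest point. The level was -3.16 ± 0.27 against -2.51 ± 0.27 (SD, n = 4 each), a difference of 0.65 with a standard error of 0.17 that did not pass the threshold. A further probe of this gene, which the array names 9130221J18Rik and which is not a member by name, differed by 0.47.

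The exporter subunits Slc51a and Slc51b showed small differences in the same direction. The signal of the brighter Slc51a probe, at chr16:32475636-32475695 on the minus strand, was 66548, 52351, 74211 and 78760 on control arrays and 86646, 86868, 93107 and 74439 on knockout arrays. Unscaled, knockout array 4 lay below control array 4; after scaling, the groups were separated by only 0.02 log2 units. The scaled difference was 0.30 with a standard error of 0.14, and it was 0.29 for the other Slc51a probe at chr16:32475871-32475930.

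For Slc51b, at chr9:65260705-65260764 on the minus strand, the signals were 5127, 4980, 4781 and 5632 on control arrays and 6363, 6050, 7329 and 6821 on knockout arrays. The groups did not overlap, and both were narrow. The difference was 0.33 log2 units with a standard error of 0.10, from 2.92 ± 0.08 to 3.25 ± 0.16 (SD, n = 4 each). It was past the threshold only with quantile normalization and in the authors' quantile-normalized values, among the alternatives run.

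The receptor gene had its lower mean on the knockout arrays. Nr1h4, which encodes FXR, gave signals of 19418, 17947, 16997 and 19388 on control arrays and 15001, 13208, 16243 and 15572 on knockout arrays, at chr10:88917222-88917281 on the minus strand. The 4 knockout arrays were all below the 4 control arrays. Its level was 4.77 ± 0.09 on control and 4.43 ± 0.16 on knockout arrays (SD, n = 4 each), a difference of -0.34 with a standard error of 0.10, or 1.27-fold higher in controls, which did not pass the threshold. It passed with array weights.

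Nr0b2 encodes SHP, the repressor that FXR induces. Its signals at chr4:133109694-133109753, plus strand, were 164, 132, 379 and 145 on control arrays and 149, 157, 175 and 265 on knockout arrays. The groups overlapped, with control array 3 the highest and control array 2 the lowest of all 8. The level was -1.86 ± 0.75 against -1.93 ± 0.46 (SD, n = 4 each), and the difference of -0.07 with a standard error of 0.37 was smaller than the spread. Its sign turned to 0.29 without control array 3, to 0.06 without knockout array 1 and to 0.21 within slide row 1.

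**Figure D2:**
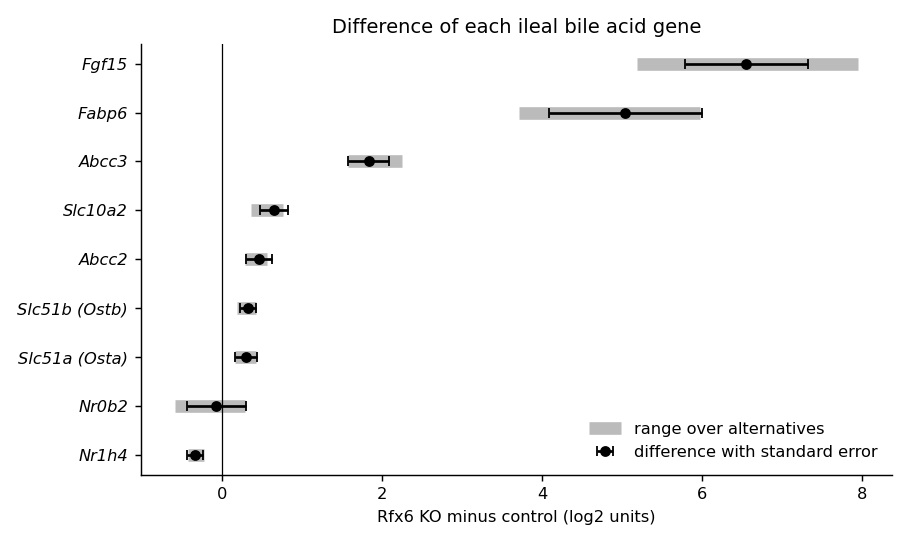
Difference between knockout and control for each gene in log2 units (points, with the standard error as bars) and the range over all alternatives run (grey). Fgf15 ran from 5.18 to 7.95, Fabp6 from 3.71 to 5.97 and Abcc3 from 1.57 to 2.25, and Nr0b2 from -0.59 to 0.29, the range that crosses 0.

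Over all alternatives run, the differences of the smaller members ranged from 0.29 to 0.56 for Abcc2, from 0.36 to 0.76 for Slc10a2, from 0.16 to 0.43 for Slc51a, from 0.19 to 0.42 for Slc51b and from -0.42 to -0.23 for Nr1h4. Control array 2 was the lowest control for 8 of the 9 members, all but Slc10a2, which was lowest on control array 4. The same array was the lowest control for 36.5% of all genes tested.

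Genes whose levels followed Fgf15 most closely were found from the root mean square difference of centred levels over the 8 arrays. The nearest were Tff2 (0.87), a trefoil peptide of gastric mucous cells, Cym (0.92), the milk-clotting protease chymosin, Ctse (0.97), the protease cathepsin E, Sult1c2 (1.02), a sulfotransferase, and Psca (1.03), a membrane protein of gastric and bladder epithelium. The median over all genes was 3.50, and Fabp6 ranked 6 at 1.07. For Fabp6 the nearest were Tff2 (1.06), Fgf15 (1.07), Duoxa2 (1.09), the maturation factor of a hydrogen peroxide-producing oxidase, 2210407C18Rik (1.16) and Eya2 (1.19), a transcriptional co-activator, against a median of 2.93. The measure uses the difference between the groups, so it ranks genes with a similar difference first.

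The Tff2 level ran from -3.27 to 1.27 on control arrays and from 3.78 to 4.60 on knockout arrays, with control array 4 the highest control, as for Fgf15. Stomach markers were higher on the knockout arrays, as Fgf15, Fabp6 and Abcc3 were. Of 9 stomach genes, 8 were tested, and Sox2 was not well above background on all arrays of either group. Among the 8, 6 rose and 0 fell, and the filter on all 8 arrays, which removes genes dim in either group, left 0 called. Cblif, the gastric intrinsic factor, and the gastrokine Gkn2 stayed below that mark on every control array and were at least 103-fold and at least 2322-fold higher on the knockout arrays, bounds set by the lowest signals above background; both passed the filter only through the knockout arrays, so no p is given. The summed stomach level, in multiples of the array's 75th percentile, was 0.61 to 3.02 on control and 365 to 684 on knockout arrays. Tff1 was the brightest of the 8 on the knockout arrays, at a mean level of 8.73. The knockout sums therefore mostly follow this gene and do not describe the others. Muc5ac and Pgc, named here after their values were seen, did not pass (differences 0.61 and 0.24). The part of stomach genes in the member differences was not tested.

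Other tissues were checked in the same way. Of 8 small intestine epithelial markers, all well above background, 1 fell and 0 rose, and their summed level was 914 to 970 on control and 681 to 814 on knockout arrays. The one that fell was Fabp2, the intestinal fatty acid binding protein, with a difference of -0.42 (limma adjusted p 0.0482), a call lost without any 1 array other than knockout array 4. Fabp2 was by far the brightest of the 8, at a mean level of 9.44 on control and 9.02 on knockout arrays. The summed level therefore mostly follows this gene and does not describe the others. Among 11 liver markers, 4 rose and 1 fell, with summed levels of 227 to 348 on control and 375 to 423 on knockout arrays. Afp, Alb and Ahsg, named here after their values were seen, did not pass. Afp was the brightest marker and so weighed most in the sum. Alb ran from -3.16 to 1.75 on control and from -0.93 to 1.96 on knockout arrays. Ahsg ran from -2.20 to 2.40 and from -0.02 to 2.74, so both overlapped between the groups. The fibrinogen chains Fga and Fgb differed by 1.48 and 1.20, the iron carrier Trf by 0.81 and the thyroxine carrier Ttr by 0.63, whereas Cyp2c29 differed by -0.65, a call lost without control array 1, control array 2, knockout array 1 or knockout array 2. Liver also expresses Nr1h4, Nr0b2, Abcc2 and Abcc3, and the part of liver RNA in their differences was not tested.

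Of 10 colon markers, 5 were tested; Hoxa13, Hoxb13, Hoxd12 and Hoxd13, which define the hindgut, did not pass the filter, and 1 had no probe. The water channel Aqp8 fell by 1.80 (limma adjusted p 2.7e-04), and the summed colon level was 34.8 to 40.2 on control and 20.9 to 26.9 on knockout arrays. Of 6 genes of gallbladder and bile duct, 1 rose, Cldn18, a claudin that gastric epithelium also carries, which was at least 10.8-fold higher. It was not well above background in controls and entered only through the knockout arrays, and with the filter on all 8 arrays 0 of the list were called. Their summed levels were 37.1 to 58.6 on control and 64 to 85.4 on knockout arrays, and 4 of the 6 were higher without overlap, against 5.4% of all genes. For 9 exocrine pancreas genes, 7 tested, 0 passed in either direction (limma; 3 had an unadjusted p under 0.05, all lower), and the summed levels of 9.01 to 28 and 5.87 to 19.4 overlapped. Their part in the member differences was not tested.

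The single Rfx6 probe did not separate the groups (difference 0.38, standard error 0.29, limma adjusted p 0.503) and was well above background on 8 of 8 arrays, so it does not check the labels. Of 8 enteroendocrine genes, 7 fell and 0 rose, among them the incretin hormones Gip and Gcg, which were at least 173-fold and at least 112-fold higher on control arrays and below that mark on every knockout array. With the filter on all 8 arrays, 4 were called lower. The share of probes above background per array ran from 57.4% to 67.1%.

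**Figure D3:**
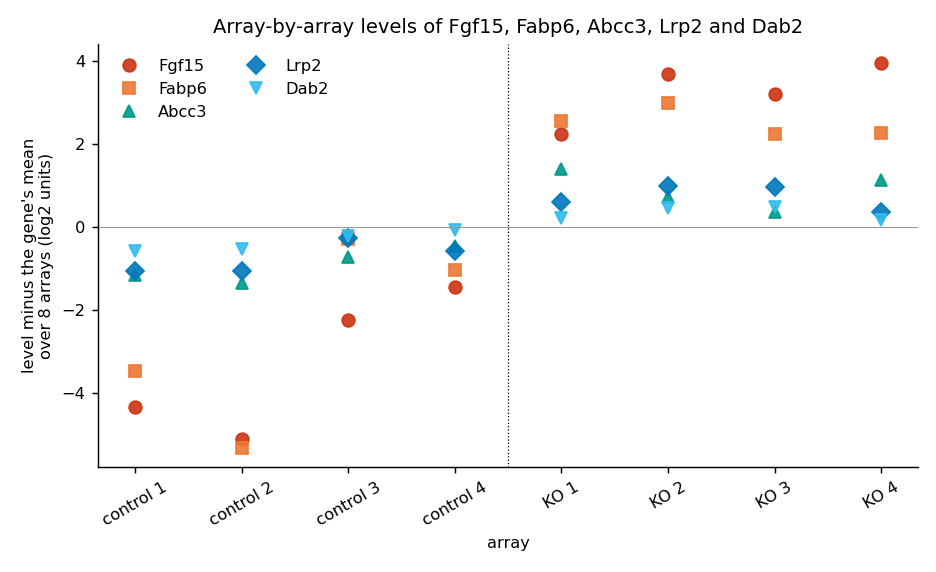
Levels of Fgf15, Fabp6 and Abcc3 and of Lrp2 and Dab2, the endocytic genes of the distal list that rose, on each array, as the distance from the gene's own mean over the 8 arrays (log2 units). All 5 genes lie above their mean on the 4 knockout arrays, and Fgf15 and Fabp6 are lowest on control arrays 1 and 2. The genes were chosen with their group difference known, so the shared direction is not a separate result. Cubn and Amn of the distal list did not pass and are not shown.

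Genes of the distal small intestine were compared next, from a list of 12 that mark ileal or fetal enterocytes or serve their protein uptake. Of these, 3 rose, 1 fell and 8 did not pass, with a median difference of 0.09. Lrp2, the endocytic receptor megalin, was 0.82, 0.82, 1.61 and 1.31 on control arrays and 2.48, 2.87, 2.86 and 2.24 on knockout arrays in log2 level, with no overlap. The rise was 1.47 ± 0.21 (SE; limma adjusted p 0.00625, and 0.00251 to 0.0295 over the alternatives). Its adaptor Dab2 rose by 0.68 (adjusted p 0.0278, and 0.0142 to 0.101 over the alternatives). The membrane protein Pllp rose by 0.65 (adjusted p 0.0343, and 0.0107 to 0.121). The Dab2 call was lost in 8 alternatives and the Pllp call in 9. Ggt1, an ectoenzyme of glutathione breakdown, fell by 0.46 (adjusted p 0.0205), a call lost without control array 1 or 4 or knockout array 1 or 2. The receptor partners of megalin in the list, named here after their values were seen, did not pass: Cubn differed by 0.48 (adjusted p 0.26) with overlapping groups, and Amn by 0.15 (adjusted p 0.507). The number that rose ranged from 1 to 3 over the alternatives, falling to 1 without control array 1, without knockout array 1 or without knockout array 2.

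Of 12 genes high in the proximal small intestine, 8 fell, 0 rose and 4 did not pass, with a median of -0.63. The retinol binding protein Rbp2 fell by 0.93 (limma adjusted p 0.00141), the alcohol dehydrogenase Adh1 by 0.92 (adjusted p 0.029), lactase Lct by 0.75 (adjusted p 0.0296) and the glucose carrier Slc2a2 by 0.68 (adjusted p 0.0147). Over the alternatives the adjusted p of limma reached 0.0264 for Rbp2, 0.128 for Adh1, 0.187 for Lct and 0.0572 for Slc2a2. The call of Lct was lost in 12 alternatives and that of Adh1 in 8. Gata4, a transcription factor of the proximal intestine that keeps ileal genes low there, fell by 0.51 (adjusted p 0.0396, and 0.015 to 0.12 over the alternatives), a call lost without any 1 array other than control array 2. The number that fell ranged from 2 to 10 over the alternatives, with 2 without control array 1 or knockout array 2, 4 without control array 3, control array 4 or knockout array 1, and 5 without knockout array 3 or 4. It was 2 with no filter, 3 with median centring or the replicate block, 4 with the slide row as a block and 10 with array weights. Of the 14 regional regulators of the gut listed, 12 were tested and Gata4 alone passed; 0 passed without control array 1, 3 or 4 or without knockout array 2, 3 or 4, and 2 passed without knockout array 1 (limma; 6 of the 12 had an unadjusted p under 0.05).

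The fatty acid and retinoid binding proteins form the family of Fabp6. Of 14 relatives, 12 were tested: 1 rose, 3 fell and 8 did not pass, with a median of 0.04. Fabp1, the liver-type protein of proximal enterocytes, fell by 0.65 (limma adjusted p 0.00786), beside Rbp2 and Fabp2. Fabp5, the epidermal-type protein, had a difference of 0.87 in the direction of Fabp6 (adjusted p 0.0425, and 0.011 to 0.141 over the alternatives). The Fabp5 call was lost in 10 alternatives, among them leaving out any 1 array other than knockout array 3. Without control array 1, 3 or 4, or without knockout array 1, 2 or 4, 0 of the 12 rose. Without control array 2, 1 of the 12 rose, and it was not Fabp5.

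Abcc2 and Abcc3 belong to the ATP-binding cassette transporters, of which 12 others were listed and tested. Of these, 2 rose, 0 fell and 10 did not pass, with a median of 0.39. Abcc1, a broad organic anion exporter, rose by 0.48 ± 0.07 (SE; limma adjusted p 0.00801) and Abcc5, an exporter of cyclic nucleotides, by 0.36 (adjusted p 0.0471). Leaving out any 1 array brought the count that rose to 1. The Abcc5 call was lost in 12 alternatives. Among these was the mean of its 4 probes, where the difference was 0.21.

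Downstream of Fgf15, 6 of 9 receptors and endocrine growth factors were tested and 0 passed (limma; 1 had an unadjusted p under 0.05). The probes of Fgf23, 1 of the 6, disagreed on whether it was above background, so its level is not read. The Fgf15 receptor Fgfr4 differed by 0.10 (limma adjusted p 0.72) and the co-receptor Klb by -0.29 (adjusted p 0.156). Malrd1, which promotes Fgf15 release, was not analysed here. Of the 9 hepatic bile acid carriers, 6 were tested, and Abcb11, the canalicular bile salt export pump, fell by 0.83 (SE 0.12; adjusted p 0.00517). The probes named for the hepatic uptake carrier Slc10a1, 1 of the 6, disagreed on whether the transcript was above background, so its level is not read.

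Of 15 bile acid synthesis enzymes, 11 were tested. The probes of Cyp7a1, the rate-limiting enzyme, and of Cyp8b1, Akr1d1 and Baat were not well above background on all arrays of either group. Among the 11, 2 rose, 2 fell and 7 did not pass, with a median of -0.09. Acox2, the peroxisomal oxidase of the bile acid side chain, rose by 1.85 (SE 0.31, limma adjusted p 0.0116, and 0.00267 to 0.0593 over the alternatives). Cyp27a1, the sterol 27-hydroxylase, rose by 0.88. It was well above background on 2 of 4 control arrays and entered only through the knockout arrays, so no p is given. The Cyp27a1 difference was 0.29 with normexp, 0.40 in the authors' quantile-normalized spot medians and 0.96 with quantile normalization of the processed signal. With the filter on all 8 arrays 1 enzyme rose. Slc27a5, the bile acid ligase, fell by 0.99 (adjusted p 0.00144) and the sterol carrier Scp2 by 0.50 (adjusted p 0.0314). The number that fell was 1 without control array 1, control array 3, knockout array 1 or knockout array 2.

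Of 18 nuclear and membrane receptors that sense bile acids and lipids, with their partners, 17 were tested, 3 fell, 0 rose and 14 did not pass, with a median of -0.16. Hnf4g, an orphan nuclear receptor of enterocytes, fell by 0.75 (limma adjusted p 0.0227), the fatty acid receptor Ppara by 0.53 (adjusted p 0.0281) and the oxysterol receptor Nr1h3 by 0.40 (adjusted p 0.0489). The FXR partner Rxra differed by -0.10 (adjusted p 0.586), Nr5a2, which encodes LRH-1, by -0.08 (adjusted p 0.65) and Hnf4a by -0.13 (adjusted p 0.495), or 0.03 with quantile normalization. The number that fell dropped to 0 without control array 1, knockout array 1 or knockout array 2, to 1 without control array 3, control array 4 or knockout array 4, and to 2 without control array 2 or knockout array 3.

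A list of 8 further genes that FXR is known to regulate, in intestine or elsewhere, had 1 that fell, 0 that rose and 7 that did not pass, with a median of 0.16. Slc10a1, whose level is not read, is 1 of the 7 and counts in that median. The one that passed was the apolipoprotein Apoc2, with a difference of -0.68 (limma adjusted p 0.00662). In all, 25 of the 101 related genes tested passed, 8 higher and 17 lower, where 2.33% and 2.59% of all genes did, and 46 had an unadjusted p under 0.05. With the filter on all 8 arrays, 24 of the related genes were called. The lists share genes, and they were written with results of these arrays known.

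**Figure D4:**
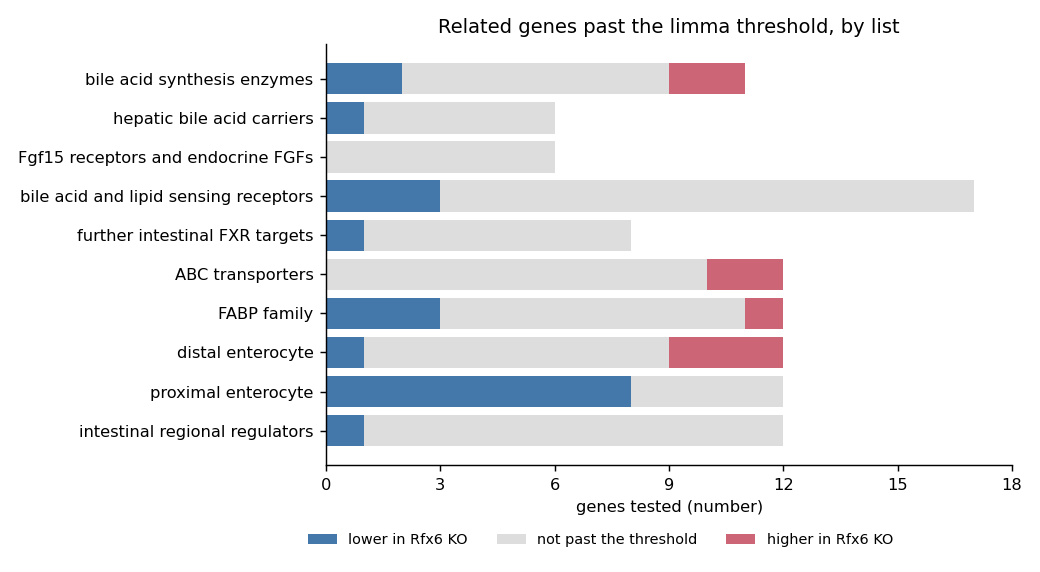
Number of tested genes in each list related to bile acid handling or to intestinal region that were lower (blue), higher (red) or not past the threshold (grey; limma, adjusted p under 0.05). Of the proximal enterocyte genes, 8 of 12 fell and 0 rose, and of the distal enterocyte genes, 3 of 12 rose and 1 fell.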

How the data were processed

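Total RNA from 4 control and 4 Rfx6 knockout samples (100 ng each) was amplified and labelled with cyanine 3, per the labels' protocols. In the deposited scanner files, each of 62976 spots per array has an intensity, background-subtracted by the authors in Feature Extraction 10.10.1.1, per the file headers. All 8 arrays shared 1 slide and 1 scan; coordinates are mm9. The authors' series matrix also holds intensity values, with a median of 129.62 in every column, on a linear scale and not centred. Set against the scanner values, these are the median signals of the same spots after quantile normalization. They do not come from the background-subtracted processed signal used here.

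Control spots (3671) and outlier spots (153 to 355 per array) were set aside, and spots of a probe were averaged. Levels are log2 of the deposited processed signal minus the array's 75th percentile, which lay between 635.8 and 740.6 signal units. Probes that every array of 1 group or both measured well above background were kept (31668), and the brightest represented its gene (23282 genes). Of 55681 probes, 26320 carried a current symbol, 2864 were named by accession, 492 by synonym and 26005 by the file's name. Groups were compared with limma 3.58.1 in R 4.3.3 (lmFit, eBayes, two-sided, Benjamini-Hochberg, threshold 0.05). P-values measure the spread between these samples, which may be technical, and the number of arrays limits the precision. On simulated data with 23282 genes, 81% of 2-fold and 96% of 4-fold changes were called, 3.28% of calls were false, and 0 calls arose without a change. The simulated noise was normal, independent between genes and arrays, and of the same SD in both groups. These rates therefore need not hold for the real arrays, where the spread of Fabp6, among others, differed between the groups.

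The members and lists were chosen with earlier results of these data known. Genes named are the members, up to 4 called genes per list in each direction, defining partners, and the 5 genes nearest to Fgf15 and to Fabp6. Further genes are marked as named after their values were seen, and the checks of named genes below leave them out. Bounds compare the brighter group with the lowest signals above background. The alternatives were background correction (normexp, offset 50), scaling, filters, the mean of a gene's probes, the series matrix values, slide row or replicate number as a block, array weights, and leaving out each array; the floor for dim values and the differences within slide rows were chosen after seeing the data. The replicate numbers did not pair the arrays.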

Additional observations from a re-analysis of the deposited data

Results flagged for a closer look

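Among the 104 groups of 4 arrays checked for the genes named above, 6 (5.77%) had an array set apart from the other three by a gap wider than Dixon's 95% limit; chance gives about 1 in 20, or 5.2 of these groups. No group of the 9 ileal bile acid genes was among them, and no explanation was tested. Apoc2 stood at 7.98 on knockout array 3, above 7.63 to 7.65 on the others. Gata4 stood at 0.96 on knockout array 2, below 1.33 to 1.37. Gkn2 stood at -5.13 on control array 4, above -6.34 to -6.28, with none of the 4 control values well above background. Ppara stood at 3.07 on control array 1, above 2.68 to 2.73. Slc2a2 and Sst stood at 2.59 and 1.75 on control array 2, below 2.86 to 2.90 and 1.98 to 2.03.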

How the results depend on the processing

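The differences of Fgf15, Fabp6, Abcc3, Slc10a2, Abcc2, Slc51a, Slc51b and Nr1h4 kept their direction under every alternative run; that of Nr0b2 did not, as given above, and Fgf15 could not be fitted with the filter on all 8 arrays. Fgf15 ran from 5.94 to 7.16 and Fabp6 from 4.11 to 5.79 when each array was left out in turn. Over all genes, 602 were lower and 543 higher on the knockout arrays. These counts were 202 and 298 with no filter, where more genes were tested, and 1424 and 907 with array weights; 253 were lower with median centring. Leaving out each array gave 217 to 589 lower and 335 to 509 higher. Of the related genes, 25 were called in the main comparison, 16 with median centring, 9 with no filter, 15 with the slide row as a block, and 9 to 20 without each array in turn. The cause was not tested. Over the named genes outside the set, 666 values kept their direction and side of the threshold, 139 lost the threshold, 1 gained it (Klb) and 2 changed sign: Hnf4a, which was not called, stood at 0.03 with quantile normalization and 0.00 in the series matrix values.

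The replicate numbers did not pair the arrays: same-numbered arrays had correlations of deviations of -0.07, -0.17, 0.07 and -0.41. With the replicate block, 148 genes were lower, 268 higher and 8 related genes called, and the call of Fabp6 was lost; the block cannot move a difference between groups. Slide and scan were shared by all arrays and could not be used as a block. For Fgf15, signal over background limits the value: 2 of 4 control arrays did not measure it above background.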
